A study of Mus musculus with 6 samples.

Results

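The Bcl2l11 region of chromosome 2 was examined for T-bet peaks in induced regulatory T cells (iTreg cells), CD4 T cells driven towards the regulatory fate in culture. Its members were the peaks of 3 deposited chromatin immunoprecipitation and sequencing (ChIP-seq) lists that overlapped the stretch from 127.9 to 128.45 Mb of the chromosome in the mouse build mm9, a length of 550 kb that holds Bcl2l11 and the sequence downstream of it. There were 26 such peaks of 8925 in all: 0 of the 78 peaks from T-bet knockout (KO) cells, 17 of the 7996 peaks of wild-type (WT) replicate 1 and 9 of the 851 peaks of WT replicate 2. The region was chosen by the positions and scores of peaks in these same lists. Its numbers of peaks and their scores are therefore descriptions.

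The study asked where T-bet, the T-box factor that drives T helper 1 differentiation, binds in regulatory T cells. The KO group was 1 library from T-bet KO iTreg cells and the WT group 2 libraries from WT iTreg cells, all of the Balb/c strain; 3 input libraries were not analysed here. The labels do not name the KO allele, the source of the KO mice or whether the WT replicates came from separate cultures. Naive CD4 cells from spleen and lymph nodes of mice 4 to 10 weeks old were activated through CD3 and CD28 (10 µg/ml of each antibody), cultured for 7 days with 33 ng/ml TGF-β1 and 20 ng/ml IL-2, and precipitated with the same rabbit serum against T-bet. Every group thus shared the TGF-β1 and IL-2 culture. The lists hold positions and scores and no expression values, so the iTreg identity of the cells could not be checked against markers. Sequencing depth is unknown for each library.

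Bcl2l11 encodes Bim, a BH3-only protein of the Bcl2 family. Bim promotes apoptosis by binding the survival proteins of that family, such as Bcl2 and Mcl1, and by activating Bax and Bak. In T cells it removes self-reactive thymocytes, ends responses by killing activated cells, and limits the survival of regulatory T cells deprived of IL-2. Gene order was taken from the RefSeq gene table for GRCm38.p6, a build other than that of the peaks. There, Acoxl, an acyl-CoA oxidase-like gene, and the pseudogene Gm23101 come before Bcl2l11. Gm14009, a long noncoding RNA (lncRNA), comes after it. Next comes Morrbid, an lncRNA gene known in mouse myeloid cells for repressing Bcl2l11. Anapc1, which encodes a subunit of the anaphase-promoting complex, lies farther along. Bcl2l11 is read on the plus strand and Morrbid on the minus strand. No mm9 annotation was used here. The peaks are therefore given by position and not assigned to promoters, introns or exons, and it is not known here which of them lie inside Bcl2l11 or Morrbid.

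The start-site sequences of Bcl2l11 and of Morrbid are shown so that the letters of the T-box element can be looked for at both genes, from RefSeq with the build GRCm38.p6, 5′ to 3′ on the strand of the gene. Each covers 250 bases before to 50 after a transcription start, and both genes matched the table, with 2 windows for Bcl2l11 and 1 for Morrbid. Capitals mark the letters GGTGT, the core of the T-box element, or the longer form AGGTGT, on either strand.
Bcl2l11 window 1: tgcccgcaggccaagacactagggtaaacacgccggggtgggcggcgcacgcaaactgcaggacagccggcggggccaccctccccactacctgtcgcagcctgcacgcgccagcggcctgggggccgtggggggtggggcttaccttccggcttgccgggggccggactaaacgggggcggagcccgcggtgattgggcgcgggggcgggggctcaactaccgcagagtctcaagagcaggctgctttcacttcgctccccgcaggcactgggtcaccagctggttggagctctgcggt
Bcl2l11 window 2: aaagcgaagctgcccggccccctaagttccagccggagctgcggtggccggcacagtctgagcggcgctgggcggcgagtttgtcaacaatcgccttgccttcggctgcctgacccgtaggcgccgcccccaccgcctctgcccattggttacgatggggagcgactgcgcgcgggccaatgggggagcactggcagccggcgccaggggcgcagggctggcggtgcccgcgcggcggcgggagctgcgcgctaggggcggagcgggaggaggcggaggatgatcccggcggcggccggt
Morrbid window: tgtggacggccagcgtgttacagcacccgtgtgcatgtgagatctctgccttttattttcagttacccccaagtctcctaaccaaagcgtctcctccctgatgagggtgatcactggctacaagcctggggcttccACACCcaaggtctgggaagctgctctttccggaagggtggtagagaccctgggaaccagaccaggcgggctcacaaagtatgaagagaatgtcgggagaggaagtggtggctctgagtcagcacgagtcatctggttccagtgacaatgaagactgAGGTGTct

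Neither Bcl2l11 window held GGTGT or its reverse complement ACACC. These windows were rich in G and C, at 71.0% and 74.0%, against 54.7% in the Morrbid window. The Morrbid window held 2 matches. One, on the printed strand, ran on to the longer form AGGTGT and began 43 bases into the transcript. The other lay on the reverse strand, beginning 114 bases before the start (position -114). The letters GGTGT occurred on either strand in 41.6% of all 32851 windows of the table, AGGTGT, which contains GGTGT, in 13.7%, and AGGTGTGA, which contains both, in 1.28%. None of the 3 windows shown held AGGTGTGA. A match to so common a run of letters is a description of the window, not a binding site, and whether any peak covers these windows was not determined.

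The KO library had no peak in the region. The KO list held 6 peaks on chromosome 2. The nearest before the region ended 67.7 Mb away and the nearest after it began 17.2 Mb away, with KO scores of 303 and 104. Accordingly, 0 of 17 WT replicate 1 peaks (exact 95% binomial interval 0 to 19.5%) and 0 of 9 WT replicate 2 peaks (0 to 33.6%) had a KO counterpart. Over the whole lists a KO counterpart was found for 0.550% of WT replicate 1 peaks and 5.41% of WT replicate 2 peaks. The members' shares thus lay close to a background that was itself near 0 in a KO list of 78 peaks. They do not show that the region is free of KO signal.

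Both WT libraries had peaks there. WT replicate 2 had 9 peaks, which made up 15.0% of its 60 peaks on chromosome 2. WT replicate 1 had 17, or 2.58% of its 658 peaks on the same chromosome. Per 100 kb, the region held 3.09 peaks in WT replicate 1 and 1.64 in WT replicate 2. Among all windows of 550 kb that begin at a peak, windows with 9 or more WT replicate 2 peaks occurred in 2 separate stretches of the genome, this region being one, and the fullest window held 11. Windows with 17 or more WT replicate 1 peaks occurred in 31 stretches, and the fullest held 35. The place of the region among these windows is a description, since it was chosen with its peaks in view. Just outside the region, the last WT replicate 1 peak before it lay 12.5 kb away with a score of 90.0 and had no WT replicate 2 counterpart. The last WT replicate 2 peak before it lay 157 kb away with a score of 241. The first peak after it lay 761 kb away in each WT list, at one site, with scores of 149 in WT replicate 1 and 89.5 in WT replicate 2.

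**Figure D1:**
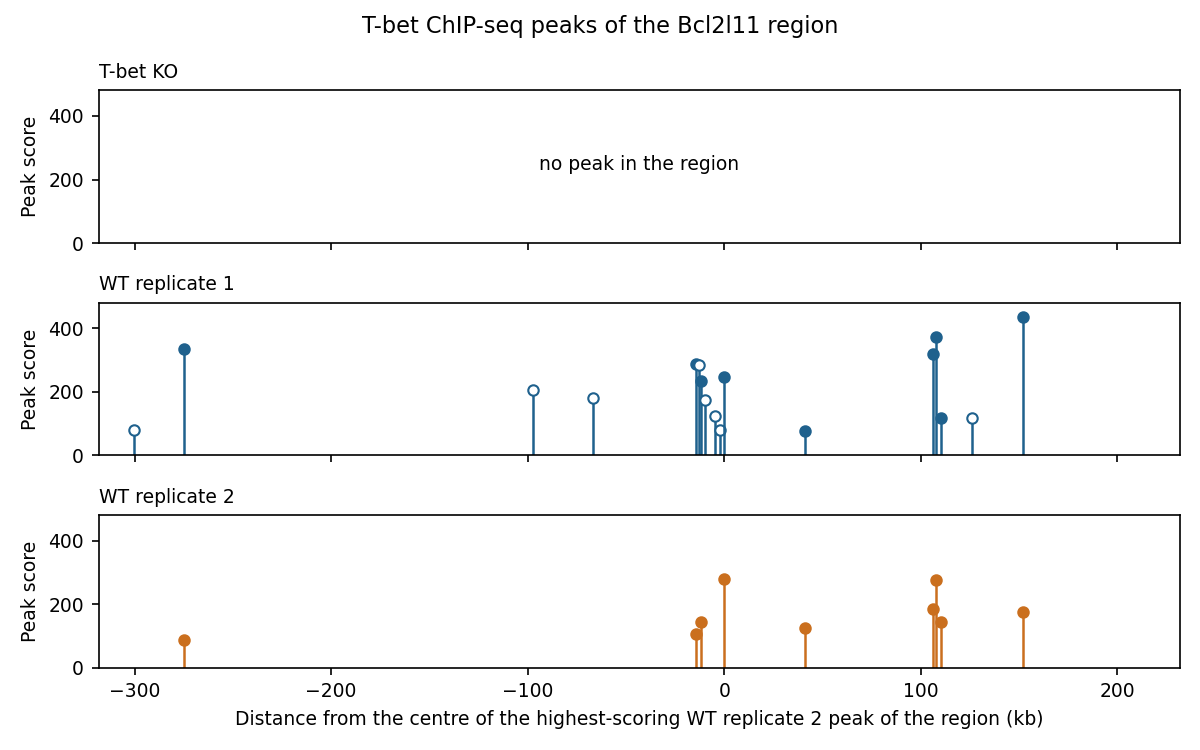
Peak score (vertical axis, the authors' value per peak, not comparable between lists) against distance in kb from the centre of the highest-scoring WT replicate 2 peak of the region, for T-bet KO, WT replicate 1 and WT replicate 2; filled circles are peaks met by the other WT list and open circles are not. The KO panel is empty, all 9 WT replicate 2 peaks have a WT replicate 1 partner, and most peaks gather in 2 clusters, one ending near 0 and the other to its right.

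Every WT replicate 2 peak of the region was found again in WT replicate 1. All 9 overlapped a replicate 1 peak by at least 1 bp (100%, exact 95% interval 66.4 to 100%), against 85.4% of the whole replicate 2 list, a background inside that interval. Conversely, 9 of the 17 replicate 1 peaks met a replicate 2 peak, or 52.9% (27.8 to 77.0%), against 9.50% of the whole replicate 1 list. Sites in both WT lists and without a KO peak numbered 9 of 17, against 9.08% of the whole replicate 1 list. With replicate 1 cut to its 851 highest peaks, the length of the replicate 2 list, 5 of the 9 replicate 2 peaks of the region, or 55.6% (21.2 to 86.3%), had a counterpart, against 46.3% of the whole replicate 2 list, a background inside that interval. The intervals cover counting error over peaks only, and neighbouring peaks of 1 library are not independent. No test was made of these shares, since the region was chosen with its peaks in view.

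The paired peaks lay close together. Midpoints of the overlapping peaks were 2 to 138 bp apart, with a median of 18.5 bp, against a median of 31 bp over all 760 overlapping pairs of the WT lists. In 8 of the 9 pairs the midpoints were within 100 bp of each other, and over all pairs this share was 89.5%. The replicate 2 peak was the wider one in 6 of 9 pairs, against 69.5% of all pairs. In these respects the pairs of the region were close to those of the lists as a whole.

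Ordered along the chromosome, the 9 shared sites began with one that joined no cluster. Site 1 ran from 127943366 to 127943718 in replicate 1, with a score of 333, and had a replicate 2 score of 86.4, the lowest of that list in the region. The nearest other replicate 2 peaks lay 200.5 kb upstream, outside the region, and 259.8 kb downstream. The nearest other replicate 1 peaks lay 25.2 kb upstream and 177.1 kb downstream. Within the whole lists, the replicate 1 peak ranked 473 of 7996 and the replicate 2 peak 619 of 851.

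The first cluster held sites 2, 3 and 4. Peaks of the lists were joined into clusters where gaps were at most 10 kb, and this cluster ran from 128203495 to 128218427, a span of 14.9 kb with 7 replicate 1 and 3 replicate 2 peaks. Site 2, from 128203502 to 128204054, scored 288 in replicate 1 and 106 in replicate 2. Site 3, from 128206434 to 128206696, scored 233 in replicate 1 and 143 in replicate 2. Site 4, from 128218100 to 128218393, closed the cluster with 247 in replicate 1 and 281 in replicate 2. That replicate 2 peak was the highest of its list in the region, ranking 51 of 851, while the replicate 1 peak ranked 901 of 7996. Between these sites lay 4 replicate 1 peaks without a replicate 2 counterpart. They began at 128205331, 128208274, 128213724 and 128215873 and scored 285, 176, 125 and 79.2 in that order.

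Site 5 stood alone, 40.8 kb farther on, and its peaks were the least aligned of the 9 pairs. The replicate 1 peak ran from 128259500 to 128259653 and the replicate 2 peak from 128259255 to 128259622. They shared 123 bp, or 33.4% of the replicate 2 peak, and it was the single pair to miss a reciprocal overlap of 50%. Its replicate 1 score of 77.9 was the lowest of that list in the region, ranking 7168 of 7996. The replicate 2 score was 125, ranking 328 of 851.

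The next cluster was compact and present peak for peak in both WT libraries. It ran from 128324287 to 128328771, a span of 4.49 kb, and held 3 replicate 1 and 3 replicate 2 peaks. Site 6, from 128324353 to 128324659, scored 320 in replicate 1 and 185 in replicate 2. Site 7, from 128325591 to 128325984, scored 374 in replicate 1 and 275 in replicate 2. It came second among the 9 sites by either score. Site 8, from 128328408 to 128328684, scored 118 in replicate 1 and 145 in replicate 2.

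**Figure D2:**
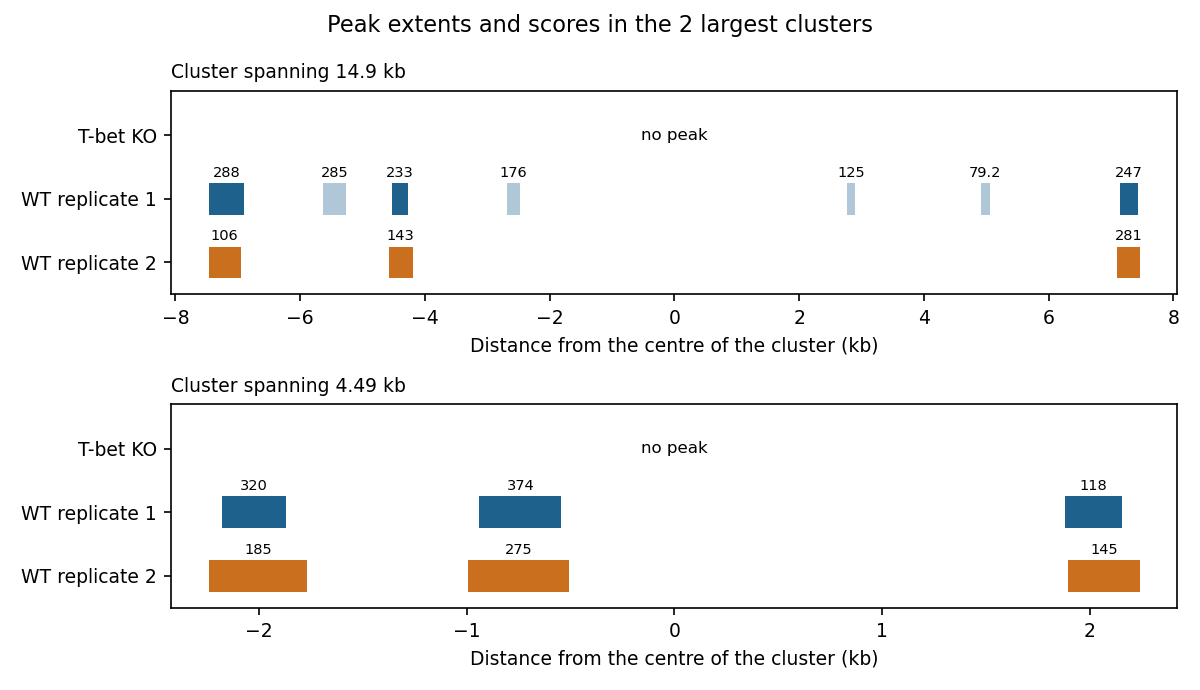
Extent of each peak (bars) in kb from the centre of the cluster, for the clusters spanning 14.9 kb (upper panel) and 4.49 kb (lower panel), with T-bet KO above WT replicate 1 and WT replicate 2; numbers are the authors' scores and pale bars are replicate 1 peaks without a replicate 2 counterpart. The wider cluster has 7 replicate 1 and 3 replicate 2 peaks, the narrower one 3 of each, and neither has a KO peak.

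Site 9 lay 41.4 kb beyond the last replicate 2 peak of that cluster and had the widest peaks of the region. It ran from 128370175 to 128370838 in replicate 1, a width of 664 bp, and was 619 bp wide in replicate 2. Its replicate 1 score of 434 was the highest of that list in the region, ranking 243 of 7996. The replicate 2 score of 176 ranked 157 of 851.

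The order of the sites by score differed between the WT libraries. Site 9 came first by replicate 1 score and ranked 4 of 9 by replicate 2 score. Site 4 came first by replicate 2 score and ranked 6 of 9 by replicate 1 score. Site 1 ranked 3 of 9 in replicate 1 and last in replicate 2. Site 7, in contrast, ranked 2 of 9 in both. The Spearman correlation of the scores over the 9 sites was 0.22. That over all overlapping pairs is not given here, so the difference in order is not shown to be particular to the region. Score scales cannot be compared between the lists, so these are orders within each library.

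**Figure D3:**
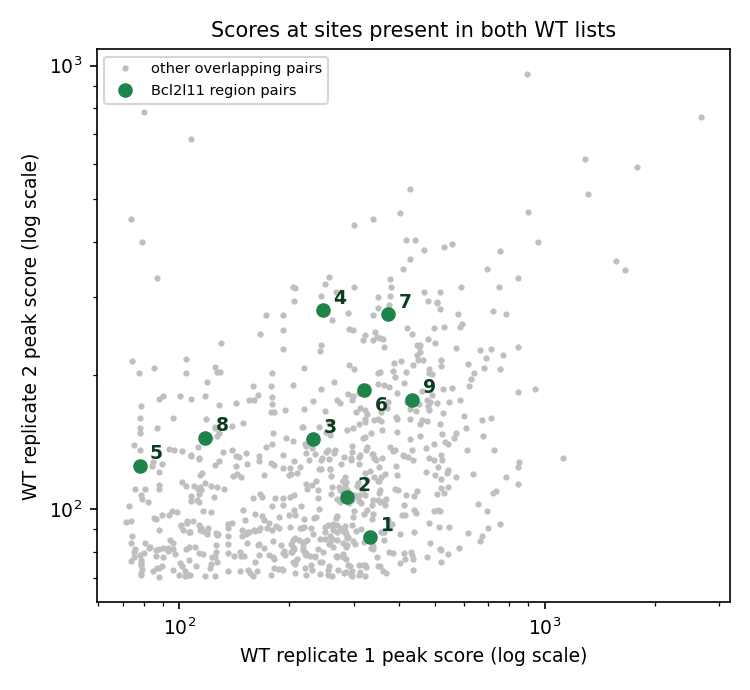
Score of the WT replicate 2 peak against that of the overlapping WT replicate 1 peak (both log axes, the authors' scores); green numbered points are the 9 sites of the Bcl2l11 region in order along the chromosome and grey points the other overlapping pairs of the WT lists. The numbered sites lie within the cloud of other pairs, from 77.86 to 434.47 in replicate 1 and from 86.39 to 280.79 in replicate 2.

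Most peaks of the region scored above the median of their list, and the highest ranked 243 in replicate 1 and 51 in replicate 2. In replicate 1 the members had a median score of 205 and a range of 77.86 to 434.47, against a median of 108 over the whole list and a highest score of 3100. At or above the list's median stood 14 of the 17, and 6 were in its top decile, which began at a score of 263. The 3 members below the median ranked 6538, 6802 and 7168 of 7996. In replicate 2 the members had a median score of 145 and a range of 86.39 to 280.79, against a median of 108 and a highest score of 2056 over the whole list. At or above that list's median stood 7 of the 9, and 2 were in its top decile, from a score of 231. Median widths were 277 bp for members in replicate 1 and 377 bp in replicate 2, against 175 bp and 353 bp over the whole lists.

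**Figure D4:**
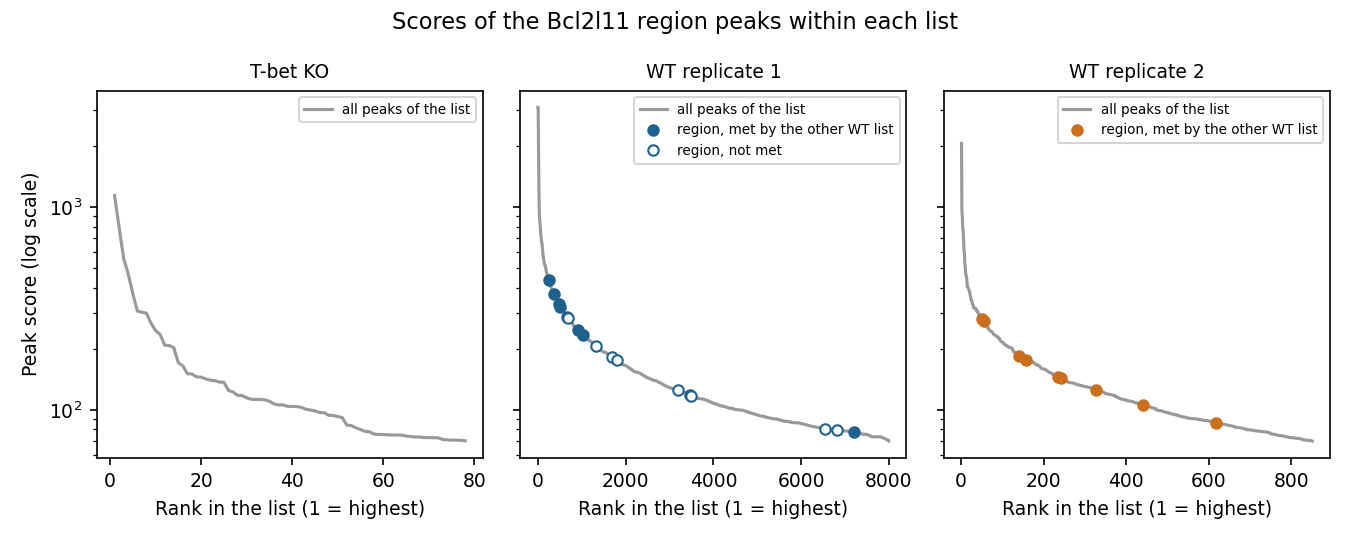
Peak score (log axis) against rank within the list for T-bet KO, WT replicate 1 and WT replicate 2; grey lines are all peaks of a list, filled circles are region peaks met by the other WT list and open circles region peaks without such a counterpart. Region peaks of replicate 1 spread from rank 243 to rank 7168 of 7996, those of replicate 2 from rank 51 to rank 619 of 851, and the KO list has none.

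The replicate 1 peaks that recurred scored higher, as a set, than those that did not, with overlap between the sets. The 9 met by replicate 2 had a median score of 288 and ranged from 77.86 to 434.47. The 8 others had a median score of 150 and ranged from 79.18 to 284.53. Median widths were 307 bp in the recurring peaks and 177.5 bp in the others. For scores, the whole replicate 1 list went the same way, with 9.50% of all its peaks recurring and 47.1% of its top decile. The score difference therefore adds no independent evidence. Widths of recurring and other peaks over the whole list are not given here. Of the 6 members in the top decile of replicate 1, 5 met a replicate 2 peak, or 83.3% (exact 95% interval 35.9 to 99.6%). Over the whole list this held for 47.1% of that decile, a background inside that interval. Among members with a score of at least 100 the share was 8 of 14, or 57.1% (28.9 to 82.3%), against 14.9% of such peaks over the whole list. Since the region was chosen with its peaks in view, these shares are descriptions, and their intervals are no test against the whole list.

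The 8 replicate 1 peaks without a counterpart were divided by position, with a cut at 5 kb from a replicate 2 peak. Within 5 kb lay 4 of the 8, all inside the cluster of 14.9 kb. Over the whole list this held for 4.77% of replicate 1 peaks without a counterpart. Because the region was chosen with its peaks in view, this difference cannot be told apart from that choice. The closest of these 4 peaks, at 128205331, was 0.688 kb from a replicate 2 peak. It scored 285, a value above that of 4 of the 9 recurring peaks. The other 4 stood apart, each the sole peak of its cluster. The first, at 127918020, scored 80.8 and lay 25.3 kb from the nearest replicate 2 peak. The peaks at 128120814 and 128151292 scored 205 and 181 and lay 82.3 and 52.0 kb away. The last, at 128344480, scored 117 and lay 15.7 kb away. A site missing from the shorter replicate 2 list is not shown to be unbound in that library.

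The peaks were unevenly spread over the region. The 9 clusters, single peaks included, spanned 453 kb from first to last peak. Both WT libraries were present in 5 of them and replicate 1 alone in 4. The 2 clusters with several peaks held 10 of the 17 replicate 1 peaks and 6 of the 9 replicate 2 peaks. The wider of them was joined through replicate 1 peaks without a counterpart: by replicate 2 peaks alone, sites 3 and 4 were 11.3 kb apart, and 5 of the 9 peaks lay in clusters of several. Neighbouring replicate 1 peaks were at most 10 kb apart in 8 of 16 gaps, or 50.0%, against 24.8% of gaps over the whole list. For replicate 2 this held in 3 of 8 gaps, or 37.5%, against 12.3%. These gap shares are descriptions, since a region chosen with its peaks in view can hold short gaps through that choice. The widest gap within the region ran for 177 kb, between the replicate 1 peaks at 127943366 and 128120814, and no list had a peak in it. Downstream of this gap lay 15 of the 17 replicate 1 peaks and 8 of the 9 replicate 2 peaks.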

How the data were processed

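T-bet ChIP-seq was deposited as 1 peak list per library, with 5 columns and no header: chromosome, start, end, peak name and score. Per the submitters' processing notes, the tools were CASAVA, Bowtie2 and MACS 1.4, on build mm9. Their settings, any filters and the controls used are not given in the sources at hand. The score in the deposited lists is the authors' value per peak on an unstated scale, used here within a list only. Samples were grouped by their titles.

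Positions were counted from 1. Peaks were shared at an overlap of at least 1 bp, and clusters joined at gaps of at most 10 kb. Shares carry exact (Clopper-Pearson) 95% intervals, which cover counting error over peaks only. With 1 KO library and a region chosen from its readout, no test was made. The region, the lists and the named peaks were chosen with earlier results of these data known. All members were to be given, those in full being every replicate 2 peak, its replicate 1 counterparts and the 5 highest replicate 1 peaks. The overlap code was checked on simulated data. The KO and replicate 2 lists carry a shared leading number in their names, replicate 1 a different one, with no stated meaning. A planned list of other Bcl2 family genes and motif searches in peaks were not analysed here for want of an mm9 genome and annotation. Values were computed in Python 3.11.15 with scipy 1.17.1 and numpy 2.4.6, and plots drawn with matplotlib 3.10.9.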

Additional observations from a re-analysis of the deposited data

How the results depend on the processing

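Of 41 values under other settings, 37 stayed close to those reported: within 1.5 times for numbers of peaks and clusters, within the exact interval for shares, and within 1 SD over the peaks for median scores. Many of the 37 could not move, so their number does not measure stability. The values on KO peaks were fixed by the distance of those peaks. Joining peaks within 500 bp changed nothing, since the smallest gaps in the region were 0.735 kb in replicate 1 and 0.774 kb in replicate 2. The other 4 of the 41 values moved. When the replicate 1 list was shortened to its 851 highest peaks, the share of replicate 2 peaks met was 55.6%. That of the 6 remaining replicate 1 peaks was 83.3% (35.9 to 99.6%). They are the same 6 peaks as the members in the top decile, so this is no separate result. Over the whole lists the share was 46.3% in each direction, inside the interval of either share. The changes follow from the shorter replicate 1 list. Without replicate 2, the sites without a KO peak numbered 17, and without replicate 1 they numbered 9. These are the peak numbers of the WT list that was left, so they carry no information on sharing. Clusters numbered 4 when joined at gaps of up to 50 kb, which is wider than most gaps between them, and 6 without replicate 1 or 9 without replicate 2. A score of at least 100 left 14 replicate 1 and 8 replicate 2 peaks and 7 shared sites, and a reciprocal overlap of 50% left 8. The number of KO peaks met was 0 under every setting run, including KO peaks extended by 1 kb. This was fixed in advance, since the nearest KO peak lay 17.2 Mb from the region, beyond the reach of any setting. No paired analysis was possible because there is 1 KO library and the results come from no test. Depth is unknown in all 3 lists and limits what the absence of a peak can show.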
